A study of Mus musculus with 6 samples.

Results

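The 10 genes described here are core parts of the Notch pathway in fetal mouse ovary: the receptors Notch1, Notch2 and Notch3, the ligands Jag1, Jag2 and Dll4, and the target genes Hes1, Hey1, Hey2 and Heyl. They were chosen by name, and each of the 10 symbols matched 1 row of a table of 48709 genes. All 10 passed the filter on low counts, which 20167 genes passed in total. RNA came from pooled gonads of CD1 female embryos at 13.5 days post coitum (dpc), from dams gavaged from 10.5 dpc up to that age. The 3 control libraries came from dams given ethanol, the solvent of the drugs. The 3 APAP+IBU libraries came from dams given acetaminophen (APAP, 30 mg/kg per day) and ibuprofen (IBU, 15 mg/kg per day) by turns. The comparison asks how this exposure, during gonadal sex determination, altered RNA levels in the ovary. The libraries are bulk RNA of whole gonads, so fewer cells of a type and less RNA per cell cannot be told apart.

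Notch signalling acts between neighbouring cells. A ligand on one cell binds a receptor on the next, the receptor is cut by ADAM proteases and then by gamma-secretase, and its freed intracellular part joins RBPJ and Mastermind proteins in the nucleus to switch on targets such as the Hes and Hey repressors. In the mouse ovary, Jagged1 on germ cells and Notch2 on pregranulosa cells are known for their part in breaking germ cell cysts into follicles. Dll4 and Hey2 are known from arterial endothelium, and Notch3 and Heyl from the mural cells around vessels.

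Total counts ran from 37811968 to 48954631 per library, so 1 count was worth 0.0197 to 0.0268 CPM, the read count scaled to a common library size with TMM factors. At an adjusted p under 0.05 no gene of the 20167 was called with edgeR's quasi-likelihood test over all 6 libraries (background 0%), while 1254 genes had an unadjusted p under 0.05 (background 6.22%, with 3% higher and 3.21% lower). DESeq2, which gave an adjusted p for 27188 genes, called 236 of them (0.868%). Markers of the tissue were present, with summed levels of 812 to 1090 CPM for 8 ovarian supporting cell genes and 1220 to 1626 CPM for 7 germ cell genes, against 8.41 to 19.0 CPM for 4 Sertoli cell genes. Interstitial markers (7 genes) summed to 572 to 683 CPM and mesonephros markers (5 genes) to 187 to 219 CPM, with overlapping groups. Emx2 alone gave 124 to 177 CPM of the mesonephros sum, while Cdh16 varied from 17.3 to 50.2 CPM between libraries. Replicate 3 of both groups stood apart in 8 liver genes, which summed to 1847 CPM in the control and 2974 CPM in the exposed pool, against 175 to 516 CPM in the other 4 libraries. The 7 spermatid genes summed to 32.3 to 120 CPM in controls and 1.44 to 4.85 CPM after exposure. The part of these liver and spermatid RNAs in the results below was not tested.

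Of the 10 genes, RefSeq promoter windows on GRCm38.p6, from 250 bases before to 50 bases after the start, were at hand for 7. Hes1, Hey1 and Heyl had none. The windows were searched for GTGGGAA on both strands, a motif known to be bound by RBPJ, the DNA-binding partner of the Notch intracellular domain. It was found in 1 of the 7 windows, that of Hey2, which holds 2 copies. Of all 32851 windows, 6.38% hold at least 1 copy and 0.256% hold at least 2. The Hey2 window is shown because it alone of the 7 carries the motif. Hey2 is the only target gene with a window, so the others are those of receptors and ligands. Capitals mark the motif, which starts 207 bases before the start on the opposite strand and 4 bases before the start on the strand of the gene. The windows of Jag1 and Jag2, the ligands whose levels varied most between libraries, are shown for their base composition. Their GC content is 55.7% for Jag1 and 86% for Jag2.
Hey2 (chr10:30842734-30843033, minus strand): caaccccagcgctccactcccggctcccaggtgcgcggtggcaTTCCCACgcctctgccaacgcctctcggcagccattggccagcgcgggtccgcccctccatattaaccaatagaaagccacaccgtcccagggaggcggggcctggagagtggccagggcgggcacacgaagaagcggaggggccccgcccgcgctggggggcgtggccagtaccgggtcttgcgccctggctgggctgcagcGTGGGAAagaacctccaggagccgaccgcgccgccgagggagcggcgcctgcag
Jag1 (chr2:137116471-137116770, minus strand): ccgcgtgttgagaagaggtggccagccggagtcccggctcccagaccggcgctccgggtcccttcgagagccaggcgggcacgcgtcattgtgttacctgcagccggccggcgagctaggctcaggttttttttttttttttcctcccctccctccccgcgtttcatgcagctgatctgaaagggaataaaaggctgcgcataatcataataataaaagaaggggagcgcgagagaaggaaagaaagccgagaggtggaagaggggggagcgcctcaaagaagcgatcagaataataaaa
Jag2 (chr12:112929446-112929745, minus strand): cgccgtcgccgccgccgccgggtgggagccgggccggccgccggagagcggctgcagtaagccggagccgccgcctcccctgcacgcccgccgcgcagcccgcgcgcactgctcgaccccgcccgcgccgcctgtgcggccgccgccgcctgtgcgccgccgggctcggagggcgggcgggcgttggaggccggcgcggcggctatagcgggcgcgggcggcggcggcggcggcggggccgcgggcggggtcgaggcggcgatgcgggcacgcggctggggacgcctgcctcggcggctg
These letters describe the windows only, and binding was not measured here.

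Levels of different genes were compared as CPM per kilobase of exon. The length was that of all annotated exons of a gene merged, which can exceed that of a single transcript and then lowers the value. It was 14.23 kilobases for Notch1, 10.78 for Notch2 and 8.09 for Notch3. Notch2 had the highest level of the 10 genes, with a mean over the 6 libraries of 14.4 CPM per kilobase, and Hey2 the lowest, at 1.12, a span of 12.9-fold. Notch2 stood above 78.8% of all tested genes and Hey2 above 31.4%. Hes1 followed Notch2 at 12.5 CPM per kilobase. Their ranges overlapped, with Notch2 the higher one in 5 of 6 libraries. Notch3 came next at 7.19, and its range of 6.46 to 7.93 lay wholly below that of Hes1, 9.45 to 14.6. Hey1 (5.78), Heyl (5.36), Jag1 (4.62), Jag2 (3.76), Notch1 (2.56) and Dll4 (2.42) followed, each with a range that overlapped that of the next gene in this order. Hey2 closed the order, below Dll4 in 6 of 6 libraries and with no overlap.

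**Figure D1:**
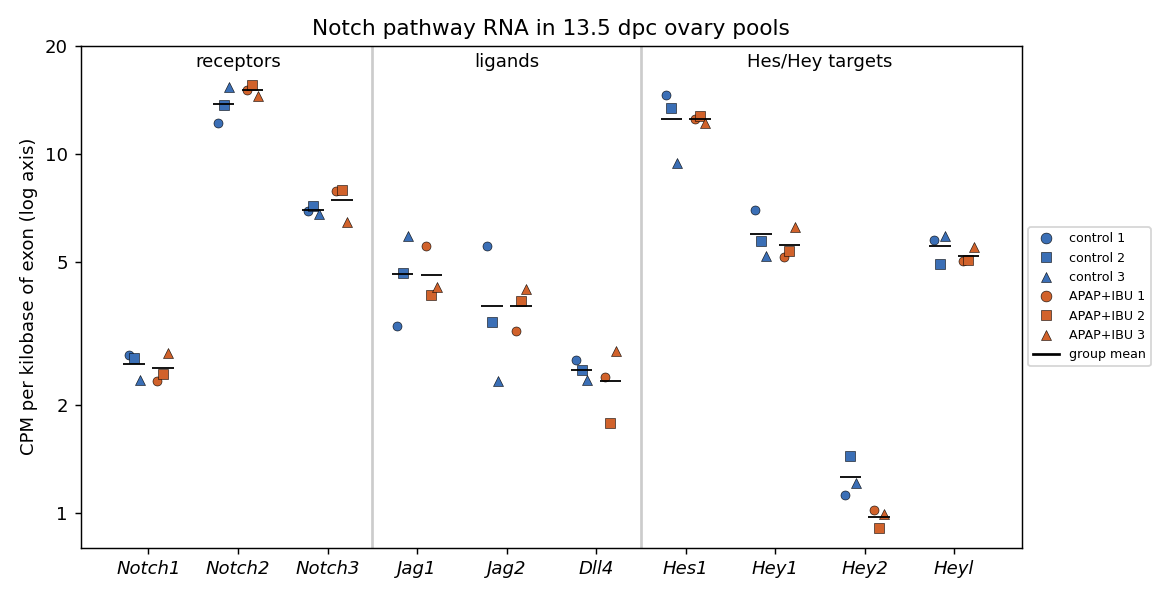
Level of each gene in CPM per kilobase of exon (log axis) in 3 control (blue) and 3 APAP+IBU (orange) libraries, with a symbol for each replicate number and a line at each group mean. Notch2 and Hes1 lie highest and Hey2 lowest, and Hey2 is the only gene whose exposed libraries all lie below its controls.

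None of the 10 genes passed the test between APAP+IBU and control ovaries. With edgeR on the 6 libraries, 0 of 10 were called at an adjusted p under 0.05, and 0 reached 0.05 before adjustment, against backgrounds of 0% and 6.22% of all tested genes. DESeq2 also called 0, beside its background of 0.868%. Of the 10 log2 fold changes, 2 were above and 8 below 0, from -0.37 to 0.13, with a median of -0.024 beside -0.0047 over all tested genes. Groups did not overlap for 1 of the 10 genes, Hey2, beside a background of 10.7% of tested genes. The 95% interval of the fold change, which bounds the difference these libraries could have missed, ran from 0.895 to 1.34 for Notch2, from 0.623 to 1.60 for Jag2 and from 0.562 to 1.07 for Hey2.

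**Figure D2:**
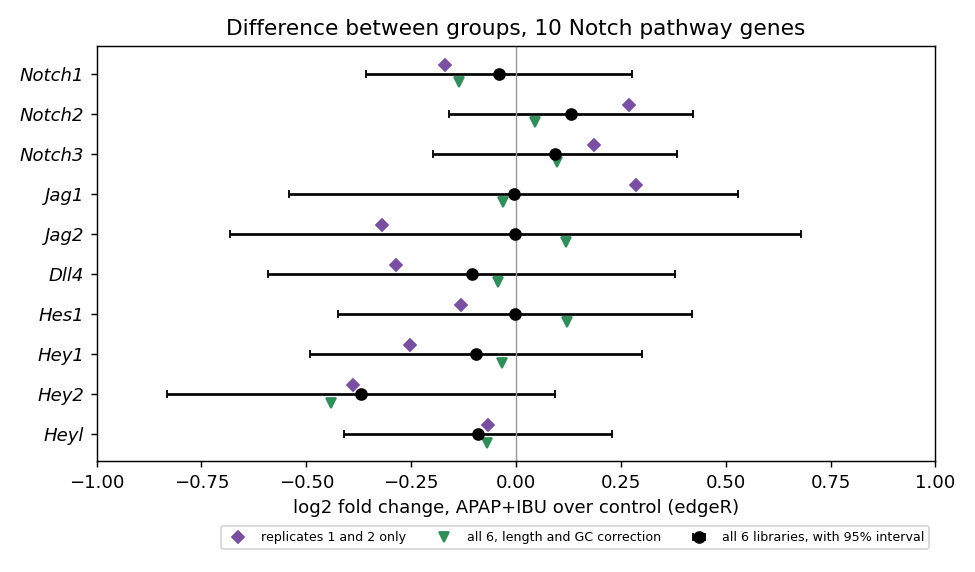
Log2 fold change of APAP+IBU over control for each gene, with the 95% interval from edgeR over all 6 libraries (black circles), the value from replicates 1 and 2 alone (diamonds) and the value after correction for gene length and GC content (triangles). Every interval includes 0, and Hey2 lies lowest at -0.37.

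Among the receptors, Notch2 (ENSMUSG00000027878) lies on chromosome 3 of GRCm38 from 98013527 to 98150361 on the plus strand. Its level was 131, 147 and 166 CPM in controls and 163, 168 and 156 CPM in exposed ovaries. The exposed libraries lay close together, in the upper part of the control range or just above it, and the log2 fold change was 0.13 (standard error 0.13, adjusted p = 0.749). Notch3 (ENSMUSG00000038146), on chromosome 17 from 32120820 to 32166852, had 56.1, 57.9 and 54.96 CPM in controls and 63.8, 64.1 and 52.2 CPM after exposure. The 3 controls lay close together, while exposed replicates 1 and 2 lay above them and replicate 3 below them (log2 fold change 0.09, standard error 0.13, adjusted p = 0.804). Notch1 (ENSMUSG00000026923), on chromosome 2 from 26457903 to 26516663, is the receptor best known from endothelium and early development. It had 39.1, 38.4 and 33.4 CPM in controls and 33.2, 34.8 and 39.8 CPM after exposure, so the groups covered nearly the same range (log2 fold change -0.04, standard error 0.14, adjusted p = 0.924). Per kilobase, Notch2 made up 58.9% ± 3.59 (SD, n = 3) of the RNA of these 3 receptors in controls and 60.2% ± 0.724 (SD, n = 3) after exposure. Notch3 made up 29.9% ± 2.07 and 29.6% ± 2.13, and Notch1 11.2% ± 1.52 and 10.1% ± 1.42. The order of the 3 receptors was the same in each library, and the shares of the groups overlapped (exact two-sided permutation tests, p from 0.4 to 0.8, where 3 libraries against 3 cannot go below 0.1).

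**Figure D3:**
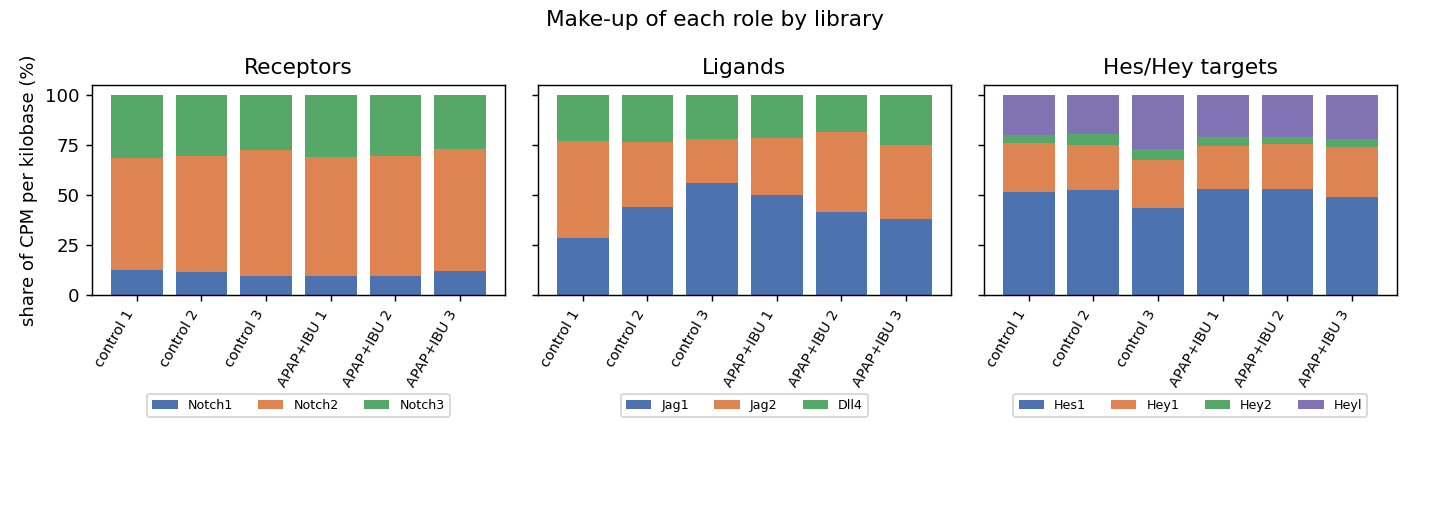
Share of each gene in the summed CPM per kilobase of its role, in percent, as stacked bars for the 6 libraries. The Notch2 share of the receptors stays between 55.7% and 62.8%, while the Jag1 share of the ligands runs from 28.7% in control replicate 1 to 55.8% in control replicate 3.

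Jag1 and Jag2 varied more between the control pools than between the groups, while Dll4 varied little among controls. Jag1 (ENSMUSG00000027276), on chromosome 2 from 137081456 to 137116644, had 19.3, 27.2 and 34.5 CPM in controls and 32.2, 23.5 and 24.9 CPM in exposed ovaries. The control range held all 3 exposed libraries, and the log2 fold change was -0.0059 (standard error 0.23, adjusted p = 0.994). Jag2 (ENSMUSG00000002799), on chromosome 12 from 112907819 to 112929776, had 38.7, 23.7 and 16.3 CPM in controls and 22.3, 27.1 and 29.2 CPM after exposure. Here too the exposed libraries lay inside the control range (log2 fold change -0.0020, standard error 0.30, adjusted p = 0.998). Among controls the highest library exceeded the lowest by 1.79-fold for Jag1 and 2.38-fold for Jag2, and the control that was highest for one ligand was lowest for the other. The ratio of Jag1 to Jag2 CPM was 0.498, 1.15 and 2.12 in controls and 1.44, 0.870 and 0.851 after exposure. As a description over the 6 libraries, log2 CPM of the pair had a Pearson correlation of -0.953. Dll4 (ENSMUSG00000027314), the ligand of sprouting and arterial endothelium, lies on chromosome 2 from 119325784 to 119335962. It had 10.3, 9.64 and 9.03 CPM in controls and 9.19, 6.88 and 10.9 CPM after exposure, with exposed replicate 2 the lowest and exposed replicate 3 the highest of the 6 (log2 fold change -0.11, standard error 0.21, adjusted p = 0.870).

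The opposed levels of Jag1 and Jag2 went along with a contrast between libraries in genes of high and low GC content. The longest Jag1 transcript has a GC content of 48.8% and that of Jag2 one of 61.9%. A GC contrast was taken for each library as the median deviation, from the mean of the 6 libraries, of the tested genes with a GC content of at least 54.1% minus that of the genes with at most 44.7%, on the log2 scale, with 5026 genes on each side. It was 0.57, 0.30 and -0.43 for the controls, in order of replicate, and -0.34, -0.20 and 0.08 for the exposed pools. Jag1 itself lies between the GC limits of this contrast. The matching contrast of long minus short genes was -0.44, -0.29 and 0.25 for the controls and 0.24, 0.21 and -0.063 for the exposed pools. Its sign was opposite to that of the GC contrast in each library. Control replicate 1, with the highest contrast, had the most Jag2 and the least Jag1, and control replicate 3, with the lowest contrast, the reverse. Over the 6 libraries the GC contrast had a Pearson correlation of -0.806 with Jag1, 0.804 with Jag2 and 0.786 with Hes1, as a description of points that share library and depth. Hes1 has a GC content of 50.7%. After a correction of each library for gene length and GC content, the range of log2 CPM over the libraries narrowed from 1.25 to 0.522 for Jag2 and from 0.837 to 0.647 for Jag1, and their correlation was -0.855. In that fit the log2 fold change was 0.12 for Jag2 (standard error 0.16, adjusted p = 0.800) and -0.030 for Jag1 (standard error 0.19, adjusted p = 0.961). GC content and gene length were not separated, and whether either caused the opposed levels was not tested.

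**Figure D4:**
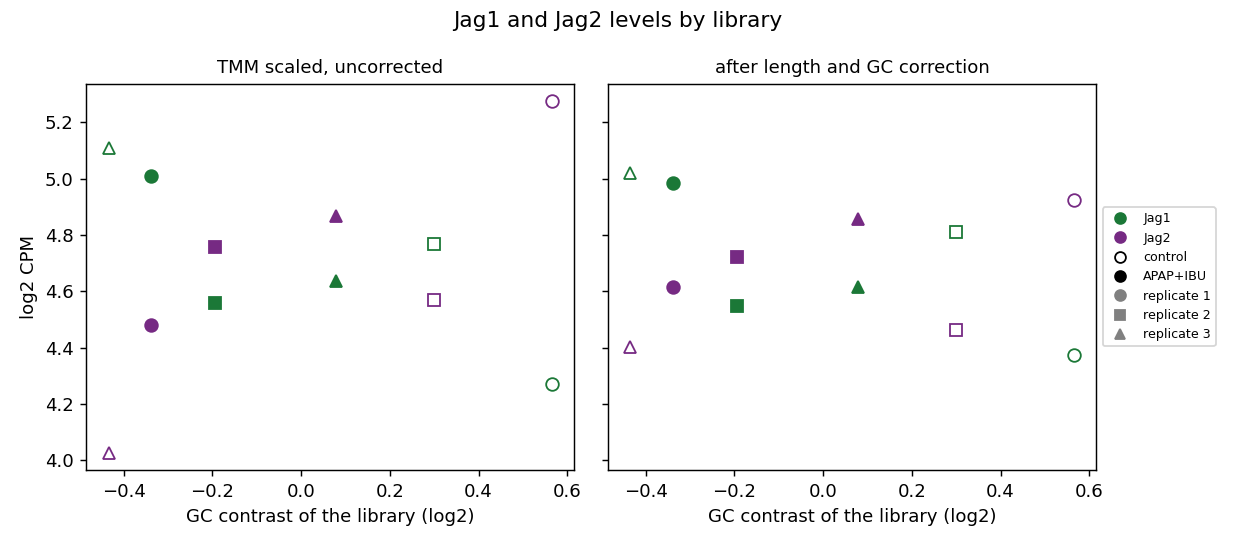
Log2 CPM of Jag1 (green) and Jag2 (purple) against the GC contrast of each library (log2), before (left) and after (right) the length and GC correction, with open symbols for controls and filled ones for APAP+IBU. On the left the genes cross over from low to high contrast, and on the right the Jag2 range is 0.522 instead of 1.25.

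Hey2 was the target with the clearest separation, without passing the test. Hey2 (ENSMUSG00000019789) encodes a transcriptional repressor known from arterial and cardiac development. The gene lies on chromosome 10 from 30832359 to 30842801 on the minus strand and carries both GTGGGAA copies shown above. It had 5.17, 6.61 and 5.55 CPM in controls and 4.69, 4.17 and 4.56 CPM after exposure, from 175 to 247 counts per library. Each exposed library lay below each control, with the gap between control replicate 1 and exposed replicate 1 the smallest. The log2 fold change was -0.37 (standard error 0.20, 95% interval -0.83 to 0.09, unadjusted p = 0.104, adjusted p = 0.692). The exact permutation p (two-sided) was 0.1, the smallest that this design allows. Of all tested genes, 5.92% were likewise lower in each exposed than in each control library. With length and GC correction the Hey2 value was -0.44 (unadjusted p = 0.0417, adjusted p = 0.531), in a fit where 9.39% of all genes had an unadjusted p under 0.05, and adding the replicate block to that correction gave -0.43 (unadjusted p = 0.0869, adjusted p = 0.717). The value stayed below 0 in each of the 19 alternative fits, from -0.56 to -0.26, with adjusted p from 0.118 to 0.9995.

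Endothelial markers had lower summed levels in the same libraries. The 8 markers summed to 498 to 542 CPM in controls and 416 to 470 CPM in exposed ovaries, without overlap (exact two-sided permutation test, p = 0.1). Of the 8, 7 had a negative log2 fold change, none had an unadjusted p under 0.05, and their median was -0.23. The exception was Cdh5, with a mean of 80.8 CPM in controls and 81.9 CPM after exposure. Pecam1 had the largest fall in mean CPM, from 140 to 111, so the sum leans on this gene. Taken singly, only Tek among the 8 had groups that did not overlap, beside 10.7% of all tested genes. The log2 ratio of Hey2 to this sum was -6.59, -6.26 and -6.61 in controls and -6.64, -6.64 and -6.69 after exposure. The difference in means was -0.17. The groups were apart only narrowly, with control replicate 3 at -6.609 and exposed replicate 1 at -6.637. How many of all tested genes have such a ratio without overlap was not counted, so the separation has no background here. For Dll4 the difference in log2 ratio was 0.066, for Notch1 0.15, for Hey1 0.11 and for Jag2 0.27, with overlapping groups for all 4. The 7 mural cell markers summed to 328 to 407 CPM in controls and 296 to 403 CPM after exposure. The log2 ratio to this sum differed by 0.24 for Notch3 and by 0.068 for Heyl, with overlapping groups for both. The part of the endothelial and mural cells in the values of the Notch genes was not tested.

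The other targets lay closer to 0. Hes1 (ENSMUSG00000022528), the general effector of Notch signalling, lies on chromosome 16 from 30064384 to 30067796 and had 29.8, 27.3 and 19.3 CPM in controls against 25.4, 26.0 and 24.8 CPM in exposed ovaries. Its exposed libraries were tightly grouped inside a wide control range set by control replicate 3 (log2 fold change -0.0019, standard error 0.18, adjusted p = 0.997). Hey1 (ENSMUSG00000040289), another repressor known from arteries, lies on chromosome 3 from 8663359 to 8667256. It had 22.8, 18.7 and 16.95 CPM in controls and 16.8, 17.51 and 20.4 CPM after exposure (log2 fold change -0.10, standard error 0.17, adjusted p = 0.856). Heyl (ENSMUSG00000032744), on chromosome 4 from 123233556 to 123249875, had 29.5, 25.2 and 30.1 CPM in controls and 25.7, 25.9 and 28.2 CPM after exposure. Its exposed libraries lay within the control range (log2 fold change -0.09, standard error 0.14, adjusted p = 0.827). Per kilobase, Hes1 made up 49.1% ± 4.93 (SD, n = 3) of the RNA of these 4 targets in controls and 51.5% ± 2.32 (SD, n = 3) after exposure, and Hey2 5.05% ± 0.958 and 4.02% ± 0.277.

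Replicate 3 of each group, the pools with more liver RNA, mostly differed in the direction opposite to replicates 1 and 2. Between the replicate 3 libraries, log2 CPM of exposed minus control was 0.84 for Jag2, -0.47 for Jag1, 0.36 for Hes1 and 0.25 for Notch1, while the same difference between the means of replicates 1 and 2 was -0.30 for Jag2, 0.27 for Jag1, -0.15 for Hes1 and -0.19 for Notch1. The sign was opposite for 8 of the 10 genes (80%), all but Hey2 and Heyl, and for 69.2% of all tested genes. The GC contrast was reversed too. In replicates 1 and 2 it was 0.57 and 0.30 in controls against -0.34 and -0.20 after exposure. In replicate 3 it was -0.43 in the control against 0.08 after exposure. The part of liver RNA and of base composition in these differences was not tested. With replicates 1 and 2 alone, edgeR called 0 of the 10 genes at an adjusted p under 0.05, beside a background of 27.2% of 20633 tested genes. Nearest was Notch2, at 0.27 on the log2 scale (standard error 0.09, unadjusted p = 0.0244, adjusted p = 0.0739), which became 0.11 with the length and GC correction. In these 4 libraries 2 genes were higher (Notch2 and Notch3) and 5 lower (Notch1, Dll4, Hes1, Hey1 and Hey2) without overlap. The backgrounds were 33.3% and 35.5%, and 68.8% for both directions together.

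A list of 46 other genes of the pathway gave no call either. All 46 passed the filter, and edgeR on the 6 libraries called 0 at an adjusted p under 0.05. Before adjustment 2 reached 0.05 (4.35%, beside the background of 6.22%), and DESeq2 called 0 (background 0.868%). Groups did not overlap for 2 genes that were higher (Ep300 and Spen, background 4.78%) and for 2 that were lower (Neurl1b and Snw1, background 5.92%). Their log2 fold changes were above 0 for 21 and below 0 for 25 genes, with a median of -0.042. Both genes with an unadjusted p under 0.05 encode large nuclear cofactors. Ep300, a histone acetyltransferase that the Notch complex recruits, had 105, 104 and 171 CPM in controls and 176, 204 and 174 CPM in exposed ovaries. Its exposed libraries lay above the controls, with control replicate 3 close to the lowest of them (log2 fold change 0.55, standard error 0.21, unadjusted p = 0.0302, adjusted p = 0.692). Spen, a corepressor that binds RBPJ in the absence of Notch signal, had 71.7, 59.1 and 89.1 CPM in controls and 93.3, 113 and 90.4 CPM after exposure, again without overlap (log2 fold change 0.43, standard error 0.17, unadjusted p = 0.0379, adjusted p = 0.692). Their exonic lengths are 14.27 kilobases for Ep300 and 14.09 for Spen. With edgeR after the length and GC correction, Ep300 was at 0.41 (unadjusted p = 0.0185, adjusted p = 0.5245). Spen was at 0.32 (unadjusted p = 0.0870, adjusted p = 0.5446). In that fit 4.35% of the 46 genes and 9.39% of all tested genes had an unadjusted p under 0.05. Leaving out control replicate 3 gave 3 calls among the 46 genes, in a fit that called 5.16% of all tested genes. They were Ep300 (0.82, adjusted p = 0.0372), Itch (0.67, adjusted p = 0.0438) and the corepressor Ncor1 (0.54, adjusted p = 0.0487).

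Dlk1, a membrane protein related to the Notch ligands that lacks the receptor-binding DSL domain, was among the 6 genes of this list with the highest levels. It had 263, 292 and 151 CPM in controls and 142, 144 and 212 CPM after exposure. Control replicate 3 was low and exposed replicate 3 high for their groups, and with all 6 the log2 fold change was -0.50 (standard error 0.27, adjusted p = 0.692). The other 5 were the receptor protease Adam10, with 56.1 CPM per kilobase over the 6 libraries, the gamma-secretase subunits Psenen (31.9) and Ncstn (30.6), the E3 ligase Dtx3 (31.6) and the Notch inhibitor Numb (30.7), against 35.5 for Dlk1. Their log2 fold changes were 0.17 for Adam10, -0.26 for Psenen, 0.23 for Ncstn, 0.16 for Dtx3 and 0.20 for Numb, with adjusted p from 0.692 (Ncstn) to 0.759 (Adam10).

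**Figure D5:**
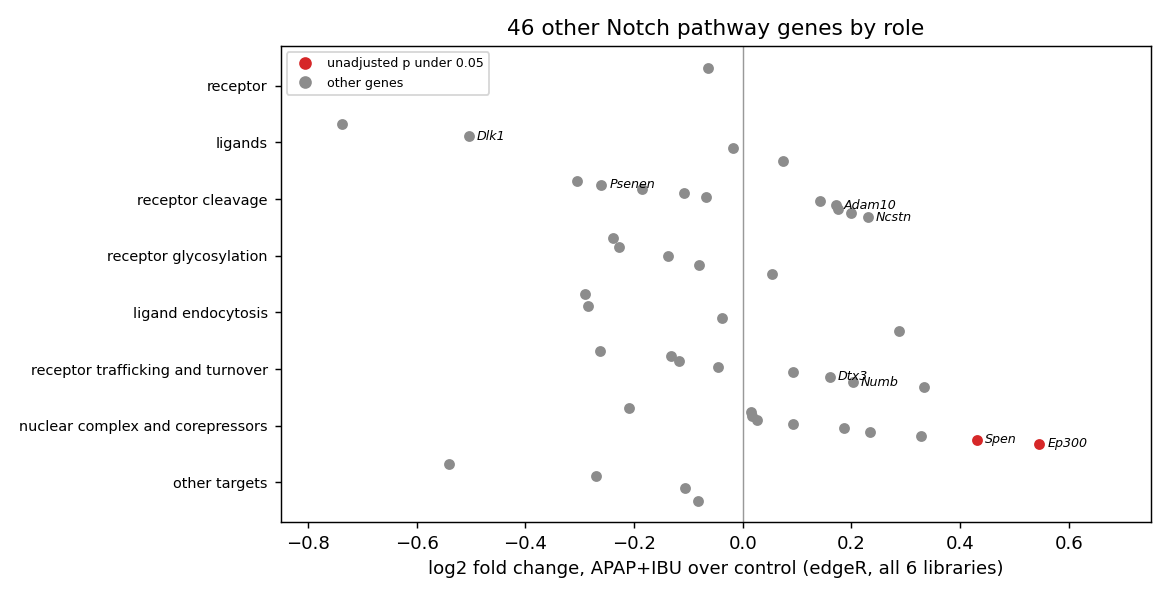
Log2 fold change of APAP+IBU over control for 46 other Notch pathway genes, in rows by role, with the 2 genes at an unadjusted p under 0.05 in red. Ep300 (0.55) and Spen (0.43) lie farthest to the right, and 25 of the 46 genes lie below 0.

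With replicates 1 and 2 alone, 16 of the 46 genes passed an adjusted p under 0.05 in edgeR's test, 9 higher and 7 lower, beside the background of 27.2% (14.2% higher and 12.9% lower). Ep300 (log2 fold change 0.88, adjusted p = 0.00623), Itch (0.79, adjusted p = 0.00623), an E3 ligase that turns over Notch, and Mib1 (0.65, adjusted p = 0.00649), which drives ligand endocytosis, were higher. Dlk1 (-0.94, adjusted p = 0.00623) and Dll3 (-1.26, adjusted p = 0.0269), a ligand that acts inside the cell, were lower. After the length and GC correction of these 4 libraries 6 of the 46 genes passed, beside a background of 13.9%, and these were Dlk1 (-0.90), Ncstn (0.46), Aph1a (-0.39), Ep300 (0.56), Spen (0.56) and Snw1 (-0.67). Itch, Mib1, Ncor1, Dll3, Aph1a, Snw1 and Neurl1b lie outside the rule for naming genes and were chosen after their values were seen.

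The genes whose log2 CPM was most like that of Dll4 over the 6 libraries, among 12361 genes with a mean of at least 5 CPM, were Spry1 (Pearson r = 0.995), Tram1l1 (0.988), Pctp (0.987), Tmem138 (0.982) and Etv4 (0.980). For Hes1 they were Kctd17 (0.998), Matk (0.996), Spg7 (0.995), Slc39a3 (0.992) and Plppr3 (0.991). A correlation over 0.9 was reached by 66 genes for Dll4 (0.534%) and by 557 genes for Hes1 (4.51%), and the median GC content of those 557 was 57.5% beside 49.6% over the candidates. These correlations describe 6 points that share library depth and base composition.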

How the data were processed

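Polyadenylated RNA of 3 control and 3 APAP+IBU pools of ovaries was measured. The authors mapped stranded reads to mm10 with TopHat 2.0.14 and Bowtie2 2.1.0 and counted them per gene of Ensembl release 86 with HTSeq 0.6.1, and the deposited values are raw counts without normalisation. The strand setting of the counting is not given in the sources used here. Opposite-strand genes share 414 and 1068 exonic bases with Notch1, 488 with Notch3 and 214 with Dll4, and Notch2 shares 541 with a gene on its own strand, so reads there may be lost or shared.

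From these counts, TMM factors, the expression filter and the tests came from edgeR 4.0.16 in R 4.3.3. The quasi-likelihood test was adjusted over all tested genes by the Benjamini-Hochberg method. Standard errors are the log2 fold change divided by the root of F. DESeq2 1.42.0 served as an alternative. Log2 CPM used a prior count of 1. Symbols, positions, exonic lengths and GC content of the longest transcript came from GENCODE M21 (GRCm38, the assembly of mm10), a later annotation than that of the authors, which matched 48349 of 48709 identifiers. The length and GC correction was a loess fit (span 0.3) per library, with values for 20103 tested genes. The tests were tried on simulated data. Groups were taken from the exposure label, although the exposed samples carry only IBU in their titles. Each library is a pool of gonads, so p-values measure the spread between pools.

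The 10 genes, the 46 other pathway genes, the marker lists and the alternatives were chosen with earlier results of these data known. Besides the 10 genes, the rule for naming took other pathway genes with an unadjusted p under 0.05, the 6 with the highest level per kilobase, and the 5 genes most like Dll4 and Hes1. Itch, Mib1, Ncor1, Dll3, Aph1a, Snw1 and Neurl1b were named outside this rule, after their values were seen. So were the single markers Tek, Cdh5, Pecam1, Emx2 and Cdh16. Within groups, each pair of libraries was farther apart than counting noise allows (chi-square per degree of freedom of 13.2 or more), so none was counted as a duplicate.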

Additional observations from a re-analysis of the deposited data

How the results depend on the processing

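Of the 10 genes, 0 were called in each of the 19 alternative fits. Of their 190 log2 fold changes there, 155 kept their direction, and 35, from 7 genes, changed sign. The reversed values reached 0.39 for Jag2 without control replicate 1 and 0.29 for Jag1 with replicates 1 and 2 only. Across fits that left out 1 library, values ran from -0.14 to 0.0045 for Notch1, -0.20 to 0.21 for Jag1, -0.25 to 0.39 for Jag2, -0.29 to 0.046 for Dll4, -0.17 to 0.13 for Hes1 and -0.21 to 0.032 for Hey1. Jag1 was at 0.028 with total counts, 0.0069 with all genes of at least 1 count, 0.017 with the replicate block, and 0.29, 0.26 (DESeq2 with beta prior) and 0.18 (length and GC correction) with replicates 1 and 2. Jag2 and Hes1 were at 0.0017 and 0.0029 with DESeq2, 0.0012 and 0.0025 with its beta prior, 0.00076 and 0.0025 with RLE size factors, 0.039 and 0.037 with total counts, 0.011 and 0.011 with all genes, 0.080 and 0.021 with the replicate block, 0.12 and 0.12 with the correction, and 0.13 and 0.13 with both. With replicates 1 and 2 and the correction, Hes1 was at 0.061 and Heyl at 0.045. The cause was not tested.

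Of the 46 other genes, replicates 1 and 2 gave 16 calls, 17 with the DESeq2 beta prior and 6 with the correction, and leaving out 1 library gave 0 to 3, the highest without control replicate 3. Over all tested genes the count of 0 became 236 with DESeq2, 193 with its beta prior, 120 with all genes of at least 1 count, 2 with the replicate block and 34 with the block and the correction. Replicates 1 and 2 gave 5607, 5701 with the DESeq2 beta prior and 2870 with the correction, and leaving out 1 library gave 0 to 1064, the highest without control replicate 3 (5.16% of 20634 genes). The cause was not tested. The core motif TGGGAA is in 25.6% of promoter windows.

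Deviations of libraries with the same number had correlations of -0.0695, -0.0151 and -0.0440, and 0 of 6 libraries correlated best with their own number. Such small correlations cannot show whether a control and an exposed library of the same number came from the same experiment. The summed liver genes were highest in replicate 3 of both groups. The replicate block changed no call among the 56 pathway genes. Hey2, the gene with the lowest level, also had the fewest counts of the 10 genes, 175 to 247 per library.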
